A study of Mus musculus with 12 samples.

Results

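The genes described are 10 members of the tumor necrosis factor (TNF) superfamily, followed in bone marrow-derived macrophages (BMDMs), macrophages grown from mouse bone marrow with macrophage colony-stimulating factor. They are the 5 ligands *Tnf*, *Tnfsf9*, *Tnfsf12*, *Tnfsf13b* and *Tnfsf14* and the 5 receptors *Tnfrsf1a*, *Tnfrsf1b*, *Tnfrsf9*, *Tnfrsf11a* and *Tnfrsf21*. The members were picked out by symbol, by matching the Ensembl identifiers of the count table, and are 10 of its 48526 genes. They are also 10 of the 46 superfamily genes that the table lists, of which 18 are ligands and 28 are receptors.

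Cells came from 3 female C57Bl/6J mice, were used on day 7 of culture, and were cultured for a further 16 hr Untreated, with Wnt3a (100 ng/mL), with IL4 (100 pg/mL), or with both agents. All groups received the colony-stimulating factor, and the labels give no age. Each mouse gave 1 sample to each group, so there were 12 samples in 4 groups of 3, and reads were counted per gene.

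In each mouse the count of every gene in the Wnt3a column was at least its count in the Wnt3a+IL4 column and at most double that count, with 0 of 48526 genes outside these limits. The columns therefore share reads, and each pair was split into a difference (Wnt3a column minus Wnt3a+IL4 column) and a remainder (Wnt3a+IL4 column minus the difference). Both profiles derive from cells that received Wnt3a, but which of them is the Wnt3a culture and which the Wnt3a+IL4 culture cannot be told apart from the labels. They are called the difference and the remainder throughout. The 12 profiles (3 untreated, 3 IL-4, 3 difference, 3 remainder) held from 13342492 to 17453377 counts each. Levels are given as CPM, counts scaled to a common library total after TMM normalisation. The macrophage markers *Csf1r* and *Adgre1* were at or above 4333 and 2139 CPM in every profile. The summed level of the 8 macrophage markers lay between 43979 and 68614 CPM, most of it *Lyz2* at 34001 to 57327 CPM. By the test given below, 4 of the 8 rose in the difference and 2 in the remainder against untreated cells. With IL-4, 1 of them fell. Over all genes 23.2%, 25.3% and 3.40% passed the test in these 3 comparisons. The 7 T and NK cell markers summed to at most 0.920 CPM, and 0 of them passed the count filter.

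TNF ligands are mostly trimeric proteins made at the cell surface, some of which are cut free, and they act by clustering receptors on the same or neighbouring cells. Receptors with a cytoplasmic death domain, such as TNFR1 (*Tnfrsf1a*) and DR6 (*Tnfrsf21*), can couple to cell death as well as to NF-κB. Receptors without it, such as TNFR2 (*Tnfrsf1b*), 4-1BB (*Tnfrsf9*) and RANK (*Tnfrsf11a*), recruit TRAF adaptors and signal to NF-κB and MAP kinases. Macrophages are a main source of TNF, and RANK is the receptor through which macrophage precursors become osteoclasts.

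In cells with Wnt3a, *Tnf* RNA was lower and the RNA of *Tnfsf13b*, *Tnfrsf1b* and *Tnfrsf9* was higher than in untreated cells, in the difference and in the remainder alike. *Tnfrsf11a* RNA was lower in both. Against untreated cells, 5 of the 10 members passed the test in the difference (3 higher, 2 lower) and 7 in the remainder (3 higher, 4 lower). Among the 3 higher in each, *Tnfrsf9*, passed the count filter only through profiles with Wnt3a and is no support for a difference. The 2 called in the remainder alone, *Tnfsf9* and *Tnfrsf1a*, were lower there. With IL-4 alone 0 of the 10 passed the test. The test was edgeR's quasi-likelihood test over 12421 genes with Benjamini-Hochberg adjustment, and a gene is said to be called, to rise or to fall where the adjusted p was under 0.05. Over all genes tested, 23.2% were called in the difference, 25.3% in the remainder and 3.40% with IL-4. Both comparisons share the 3 untreated samples, so they are not independent of each other. Under scaling by total count alone, 7 members were called in the difference, 3 higher and 4 lower. Of the 12421 genes, 3369 were then called there, 1131 higher and 2238 lower, against 1462 and 1422 with TMM.

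**Figure D1:**
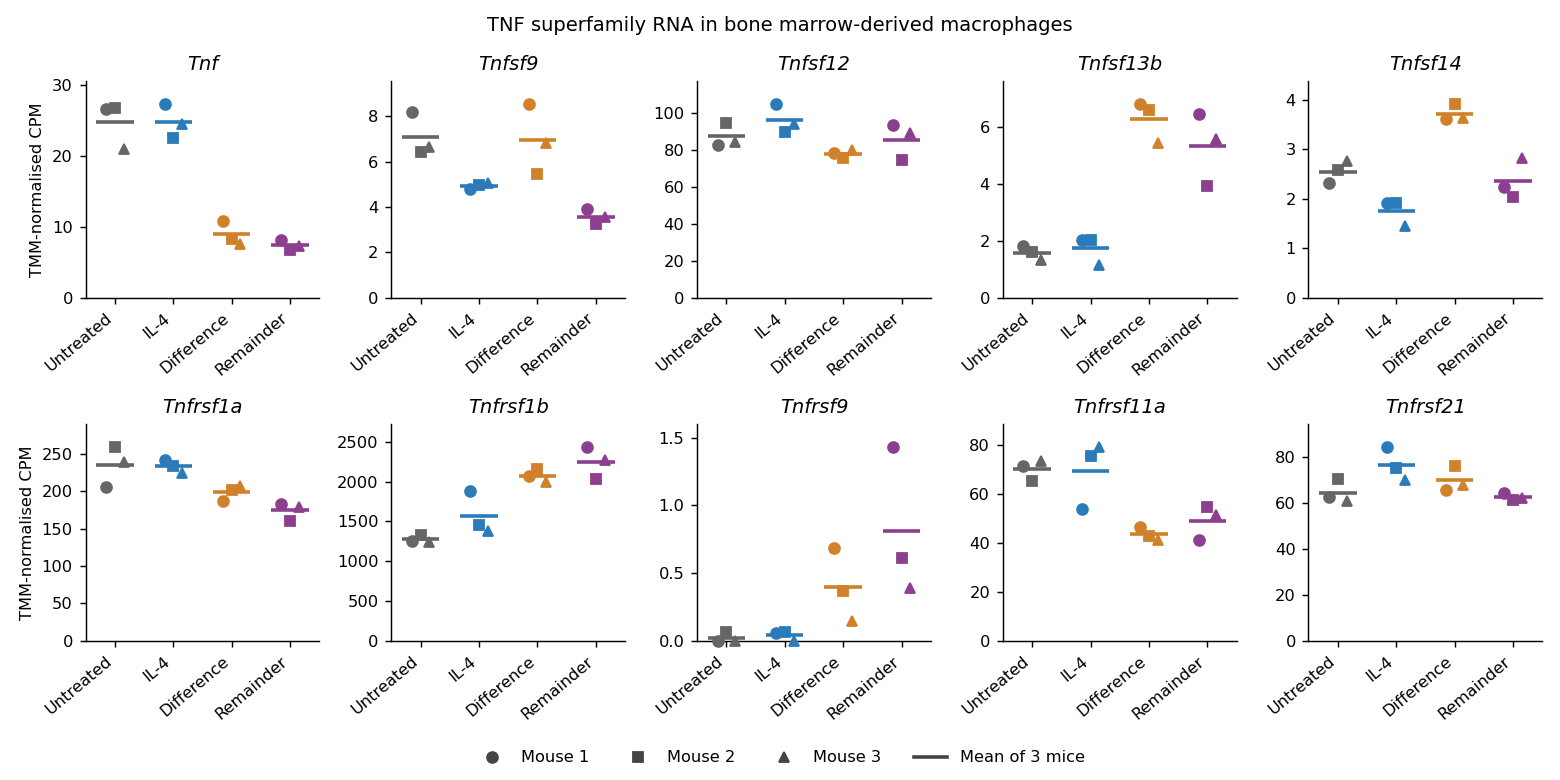
Level of each of the 10 members (y axis, TMM-normalised CPM from 0, a separate scale in each panel) in untreated, IL-4, difference and remainder profiles (x axis), with a symbol for each of the 3 mice and a bar at their mean. *Tnf* sits between 20.9 and 26.8 CPM in untreated cells and at or below 10.9 CPM in every difference and remainder profile, while *Tnfrsf1b* goes from at most 1336 CPM in untreated cells to at least 1992 CPM in them.

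The 3 upstream sequences shown are those of the ligand that fell, the ligand that rose and the abundant receptor that rose in both kinds of Wnt3a profile. Each is the stretch just before the first base of the RefSeq transcript, on the coding strand and in the GRCm38.p6 build (mm10), with no annotated exon in it. Capitals mark every match to a motif searched, on either strand.
*Tnf*, chr17:35202008-35202257, minus strand: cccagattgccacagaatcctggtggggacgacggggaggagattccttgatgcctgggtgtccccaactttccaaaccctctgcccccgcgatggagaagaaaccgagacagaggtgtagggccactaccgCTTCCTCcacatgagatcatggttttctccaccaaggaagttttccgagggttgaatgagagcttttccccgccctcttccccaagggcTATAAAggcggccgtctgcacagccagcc
*Tnfsf13b*, chr8:10006217-10006466, plus strand: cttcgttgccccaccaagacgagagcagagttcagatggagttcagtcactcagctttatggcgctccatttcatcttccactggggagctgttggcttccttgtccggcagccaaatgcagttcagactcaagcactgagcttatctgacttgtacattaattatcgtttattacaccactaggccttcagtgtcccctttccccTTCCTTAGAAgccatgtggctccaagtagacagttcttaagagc
*Tnfrsf1b*, chr4:145246871-145247120, minus strand: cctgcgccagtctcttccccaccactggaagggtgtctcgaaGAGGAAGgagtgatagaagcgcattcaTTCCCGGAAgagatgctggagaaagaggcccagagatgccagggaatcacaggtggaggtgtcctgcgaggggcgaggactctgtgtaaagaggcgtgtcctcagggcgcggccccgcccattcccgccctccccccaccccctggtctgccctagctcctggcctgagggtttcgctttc
The motifs searched were AP-1 (TGANTCA), TCF/LEF (CTTTGAT), STAT (TTCNNNGAA), the wider-spaced STAT6 form (TTCNNNNGAA), PU.1 (GAGGAAG), the cyclic AMP response element (TGACGTCA), the TATA box (TATAAA) and the NF-κB consensus. The *Tnf* stretch holds a TATA box at bases -29 to -24 from the start and a PU.1 match at -118 to -112, motifs found in 12.4% and 10.6% of the 32851 promoters in the table. The *Tnfsf13b* stretch holds the STAT6 form at -44 to -35, found in 5.85% of all promoters. The *Tnfrsf1b* stretch holds a STAT match at -181 to -173, found in 7.02%, and a PU.1 match at -208 to -202. Of the 10 members, 8 had a promoter in the table, and *Tnfsf9* and *Tnfsf12* were not matched. *Tnfrsf9* and *Tnfsf13b* had 2 promoters each, and the second one of *Tnfsf13b* overlaps annotated exon bases and adds an AP-1 match. The 250 bases before the downstream start of *Tnfrsf9* hold 2 overlapping NF-κB matches (3.90% of all promoters), a STAT match and an AP-1 match (6.75%), and those before its upstream start hold a TCF/LEF match (3.21%). The stretch of *Tnfsf14* holds an AP-1 match and that of *Tnfrsf1a* a STAT match. Those of *Tnfrsf11a* and *Tnfrsf21* hold no match to these letters. The NF-κB and AP-1 matches of *Tnfrsf9* and the STAT match of *Tnfrsf1a* also lie in annotated exon bases. A match describes the letters only and was not tested for binding.

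*Tnf* encodes TNF, the founding cytokine of the family, which acts on TNFR1 and TNFR2. The gene (ENSMUSG00000024401) lies on chromosome 17 of mm10 from 35199381 to 35202007. Its level was 26.6, 26.8 and 20.9 CPM in the untreated samples of mouse 1, 2 and 3, and 27.3, 22.5 and 24.5 CPM with IL-4. It was 10.9, 8.36 and 7.63 CPM in the difference and 8.20, 6.76 and 7.36 CPM in the remainder. Every profile with Wnt3a lay below every profile without it. The log2 fold change against untreated cells was -1.46 in the difference (standard error 0.15, adjusted p = 6.7e-06 from edgeR), a level 0.363 times the untreated one. It was -1.74 in the remainder (standard error 0.15, adjusted p = 1.3e-06 from edgeR), or 0.300 times. With IL-4 alone the log2 fold change of *Tnf* was 0.00 (95% interval -0.30 to 0.30). The remainder against the difference gave -0.27 (95% interval -0.61 to 0.07, adjusted p = 0.37 from edgeR). In bulk RNA, fewer cells of a type and less RNA per cell cannot be told apart, here and in the results that follow.

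*Tnfsf13b* encodes BAFF, a survival factor for B cells that myeloid cells make. The gene (ENSMUSG00000031497, chromosome 8 from 10006467 to 10039072) was low in untreated cells, at 1.83, 1.61 and 1.32 CPM from 34, 25 and 21 counts. With IL-4 it was at 2.04, 2.05 and 1.15 CPM. It was at 6.81, 6.59 and 5.45 CPM in the difference and at 6.46, 3.93 and 5.58 CPM in the remainder. The lowest profile with Wnt3a, the remainder of mouse 2, was still above the highest profile without it. Against untreated cells the log2 fold change was 1.98 in the difference (standard error 0.25, adjusted p = 4.5e-05 from edgeR) and 1.74 in the remainder (standard error 0.25, adjusted p = 0.00013 from edgeR). These are 3.95 and 3.34 times the untreated level. The remainder against the difference gave -0.24 (95% interval -0.71 to 0.23). The receptor that binds BAFF alone, *Tnfrsf13c*, had 0 counts in all 12 profiles, and *Tnfrsf13b* (TACI), which binds BAFF and APRIL, was at 31.4 CPM in untreated cells with no call in any comparison.

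*Tnfsf9* encodes 4-1BB ligand, which costimulates T cells through 4-1BB. The gene (ENSMUSG00000035678) lies on chromosome 17 from 57105325 to 57107757. It was at 8.17, 6.43 and 6.65 CPM in untreated cells and at 4.79, 4.98 and 5.05 CPM with IL-4. It was at 8.53, 5.43 and 6.83 CPM in the difference and at 3.91, 3.26 and 3.55 CPM in the remainder. The remainder lay below every other profile. The difference spanned the untreated range. *Tnfsf9* fell in the remainder against untreated cells by 0.99 on the log2 scale (standard error 0.18, adjusted p = 0.00096 from edgeR). In the difference its log2 fold change was -0.03 (95% interval -0.40 to 0.33). *Tnfsf9* is the member that differed between the remainder and the difference, by -0.96 on the log2 scale (standard error 0.18 and adjusted p = 0.0063 in edgeR), lower in the remainder in 3 of 3 mice. Over all genes 5.25% were called in that comparison. Without mouse 3 the value was -0.96 with an adjusted p of 0.22 from edgeR. With the deposited Wnt3a+IL4 column in place of the remainder, *Tnfsf9* was not called against untreated cells (log2 fold change -0.45, adjusted p = 0.073 from edgeR). That column holds the reads of both profiles, so this is no test of the remainder. Of its exon bases, 14.9% overlap *Gm11110* on the other strand, and the counting is not stated to use strand, so reads of the 2 genes cannot be told apart there.

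*Tnfsf14* encodes LIGHT, which binds the lymphotoxin β receptor and HVEM. The gene (ENSMUSG00000005824, chromosome 17 from 57189492 to 57194177) was at 2.31, 2.57 and 2.76 CPM in untreated cells and at 1.92, 1.92 and 1.44 CPM with IL-4. It was at 3.61, 3.91 and 3.64 CPM in the difference and at 2.24, 2.03 and 2.83 CPM in the remainder. The difference stood above all other profiles, and IL-4 below them. Against untreated cells the log2 fold change in the difference was 0.55 (standard error 0.19, adjusted p = 0.052 from edgeR), which did not pass the test. The adjusted p was 0.049 with DESeq2's size factors and 0.045 without the remainder profile of mouse 2. Against IL-4 *Tnfsf14* was higher in the difference, by 1.07 on the log2 scale (standard error 0.20 and adjusted p = 0.0012 in edgeR).

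*Tnfsf12* encodes TWEAK, the ligand of Fn14. The gene (ENSMUSG00000097328) lies on chromosome 11 from 69686250 to 69695849. It was at 82.5, 94.6 and 84.4 CPM in untreated cells, at 104.6, 89.9 and 93.8 CPM with IL-4, at 78.3, 75.5 and 80.0 CPM in the difference and at 93.2, 74.4 and 89.0 CPM in the remainder. The difference lay below the untreated and IL-4 samples, but *Tnfsf12* was not called against untreated cells in any profile. The log2 fold change was -0.16 in the difference (95% interval -0.36 to 0.04) and -0.03 in the remainder (95% interval -0.23 to 0.17). Of its exon bases, 48.2% belong also to *Tnfsfm13*, a readthrough gene with *Tnfsf13*, so its count is uncertain to that extent.

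The receptors differed in direction. *Tnfrsf1b* encodes TNFR2, the receptor that leukocytes carry in large amounts. The gene (ENSMUSG00000028599) lies on chromosome 4 from 145213463 to 145246870. It was at 1254, 1336 and 1240 CPM in untreated cells and at 1882, 1456 and 1380 CPM with IL-4. It was at 2075, 2156 and 1992 CPM in the difference and at 2429, 2034 and 2268 CPM in the remainder. All 6 profiles with Wnt3a were above all 6 without it, and IL-4 mouse 1 was the highest of the latter. *Tnfrsf1b* rose on the log2 scale by 0.70 in the difference (standard error 0.11 and adjusted p = 0.00038 in edgeR) and by 0.81 in the remainder (standard error 0.11 and adjusted p = 8.6e-05). With IL-4 alone its log2 fold change was 0.30 (95% interval 0.06 to 0.54, adjusted p = 0.20 from edgeR).

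*Tnfrsf1a* encodes TNFR1, the death domain receptor found on most cells. The gene (ENSMUSG00000030341) lies on chromosome 6 from 125349362 to 125362484. It was at 205.9, 258.2 and 239.0 CPM in untreated cells, at 242.1, 233.2 and 223.7 CPM with IL-4, at 186.8, 201.3 and 207.4 CPM in the difference and at 183.1, 160.7 and 178.7 CPM in the remainder. The remainder lay below all other profiles, and the difference overlapped the untreated range. *Tnfrsf1a* fell by 0.43 on the log2 scale in the remainder (standard error 0.09, adjusted p = 0.0025 from edgeR). That call was lost without mouse 2 (adjusted p = 0.061 from edgeR) and without mouse 3 (adjusted p = 0.078). In the difference the log2 fold change was -0.24 (95% interval -0.43 to -0.05, adjusted p = 0.066 from edgeR). It passed the test there under scaling by total count (adjusted p = 0.0025), without mouse 1 (0.040), without the untreated sample of mouse 1 (0.016) and without the remainder of mouse 2 (0.031). The deposited Wnt3a column gave an adjusted p of 0.0035 from edgeR, but it holds reads of both profiles and is no test of the difference.

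Levels of different genes were compared per length, as CPM per kilobase of annotated exon. Per kilobase, *Tnfrsf1b* was the highest member in untreated cells, at 334.4 ± 13.6 (SD, n = 3), followed by *Tnfrsf1a* at 90.4 ± 10.2 and *Tnfsf12* at 57.5 ± 4.31. *Tnfrsf21* (15.7 ± 1.27) and *Tnf* (15.1 ± 2.02) came next and overlapped each other. *Tnfrsf11a* (11.7 ± 0.717), *Tnfsf9* (5.49 ± 0.734), *Tnfsf14* (1.38 ± 0.122) and *Tnfsf13b* (0.231 ± 0.0373) followed, each apart from its neighbours. *Tnfrsf9* was last, with at most 0.0236. The exon length counts every annotated exon, also those of transcripts these cells may not use.

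The ratio of *Tnfrsf1b* to *Tnfrsf1a*, both per kilobase, was 4.13, 3.51 and 3.52 in the untreated samples of mouse 1, 2 and 3. It was 5.28, 4.24 and 4.19 with IL-4, 7.54, 7.27 and 6.52 in the difference, and 9.004, 8.59 and 8.61 in the remainder. The 4 groups did not overlap, and the mean went from 3.72 ± 0.357 (SD, n = 3) in untreated cells to 8.73 ± 0.233 in the remainder. No test was made on the ratio, which restates the levels of both genes.

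**Figure D2:**
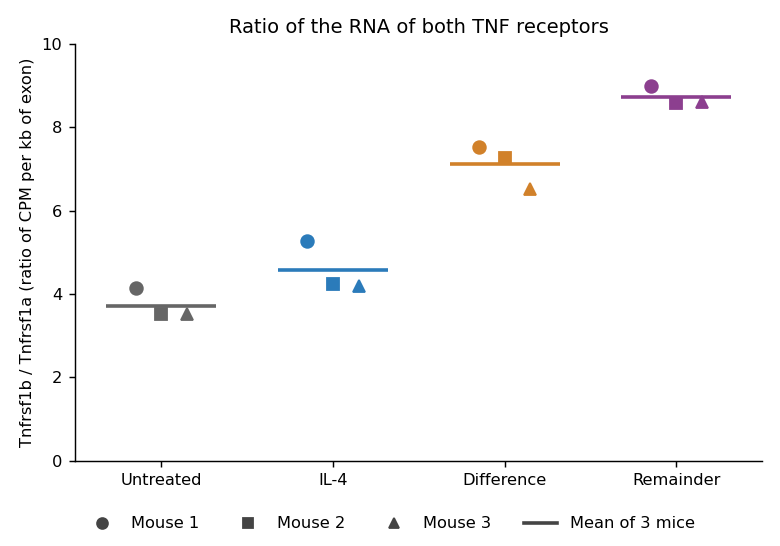
Ratio of *Tnfrsf1b* to *Tnfrsf1a* (y axis, CPM per kilobase of exon over the same, from 0) in each profile (x axis, 4 groups), with a symbol for each mouse and a bar at the mean of 3. The ratio lies between 3.51 and 4.13 in untreated cells, between 6.52 and 7.54 in the difference and between 8.59 and 9.004 in the remainder.

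*Tnfrsf11a* encodes RANK, the receptor for RANK ligand. The gene (ENSMUSG00000026321) lies on chromosome 1 from 105780718 to 105847981. It was at 71.3, 65.2 and 73.5 CPM in untreated cells, at 53.7, 75.5 and 78.9 CPM with IL-4, at 46.3, 42.9 and 41.1 CPM in the difference and at 41.1, 54.7 and 51.5 CPM in the remainder. The difference and the remainder lay below the untreated samples, while IL-4 mouse 1 lay inside the range of the remainder. *Tnfrsf11a* fell by 0.69 on the log2 scale in the difference (standard error 0.14, adjusted p = 0.0021 from edgeR) and by 0.51 in the remainder (standard error 0.14, adjusted p = 0.013 from edgeR). Without mouse 3 neither call held (adjusted p = 0.078 in the difference and 0.13 in the remainder). The call in the remainder was also lost without the untreated sample of mouse 3 (0.053) and without the remainder of mouse 1 (0.073). RANK ligand, *Tnfsf11*, had 0 counts in every profile.

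*Tnfrsf9* encodes 4-1BB, best known as an activation receptor of T cells. The gene (ENSMUSG00000028965) lies on chromosome 4 from 150914562 to 150946102. Its counts were 0, 1 and 0 in the untreated samples of mouse 1, 2 and 3 and 1, 1 and 0 with IL-4. Its counts rose to 12, 6 and 2 in the difference and 23, 10 and 6 in the remainder, highest in mouse 1 in both. *Tnfrsf9* passed the count filter through profiles with Wnt3a only, so that it could hardly pass without a difference. It was called higher in the difference (adjusted p = 0.019 from edgeR) and in the remainder (adjusted p = 0.0018 from edgeR), and its fitted fold change depends on the prior count. The summed counts, relative to library size, were 21.05 times the untreated sum in the difference (95% exact counting interval 3.37 to 872.3) and 41.0 times in the remainder (6.95 to 1662.4). The call in the difference was lost without mouse 3 (adjusted p = 0.053), without the untreated sample of mouse 1 (0.067) and without that of mouse 3 (0.064). *Ccr7*, 1 of the 6 dendritic cell markers, rose with it, from 0.125 to 0.322 CPM in untreated cells to 6.94 to 19.8 CPM in the remainder. Like *Tnfrsf9*, *Ccr7* passed the count filter through profiles with Wnt3a only, so its rise is no support for a difference. *Zbtb46*, the other dendritic cell marker tested, was called higher in the remainder too (log2 fold change 1.56, adjusted p = 0.011 from edgeR, higher in 3 of 3 mice). It was at 0.257 to 0.484 CPM in untreated cells and 0.807 to 1.72 CPM in the remainder. No untreated sample of *Zbtb46* reached the count filter, so this call is no support for a difference either. With IL-4 alone its log2 fold change was 0.94 (95% interval 0.01 to 1.88, higher in 3 of 3 mice), which was not called. The 6 markers summed to 0.965 to 1.505 CPM in untreated cells, 3.13 to 7.84 in the difference and 8.48 to 21.1 in the remainder. Most of the sum in the difference and the remainder was *Ccr7*. Of the 6 markers, 2 passed the count filter. The others, *Flt3*, *Xcr1*, *Clec9a* and *Siglech*, were at or below 0.630 CPM in every profile. The part of such cells in the *Tnfrsf9* counts was not tested.

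*Tnfrsf21* encodes DR6, a death domain receptor. The gene (ENSMUSG00000023915, chromosome 17 from 43016555 to 43089189) was at 62.3, 70.4 and 60.7 CPM in untreated cells and at 84.1, 75.0 and 70.1 CPM with IL-4. It was at 65.5, 76.0 and 67.7 CPM in the difference and at 64.5, 61.3 and 62.2 CPM in the remainder. No comparison of *Tnfrsf21* with untreated cells passed the test. The log2 fold change was 0.25 with IL-4 (95% interval 0.05 to 0.44), 0.11 in the difference (95% interval -0.08 to 0.31) and -0.04 in the remainder (95% interval -0.23 to 0.15).

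**Figure D3:**
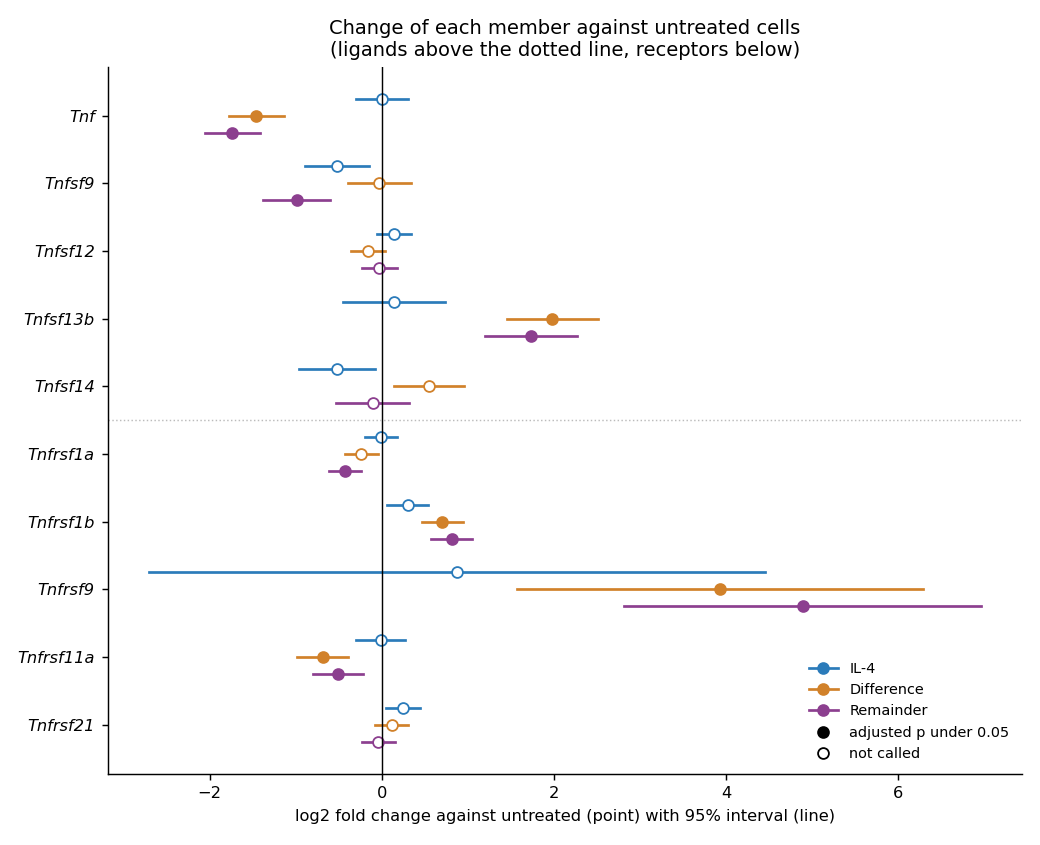
Log2 fold change of each member against untreated cells (x axis) with its 95% interval, for IL-4, the difference and the remainder, with ligands above the dotted line and receptors below (y axis). Filled points passed the test. *Tnf* and *Tnfrsf11a* lie to the left of 0 and *Tnfsf13b*, *Tnfrsf1b* and *Tnfrsf9* to the right in the difference and the remainder, and all 10 IL-4 points are open.

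IL-4 alone was compared with untreated cells over the same genes. It called 0 of the 10 members in edgeR and 0 in DESeq2, while 4 members had an unadjusted p under 0.05. These were *Tnfsf9* (log2 fold change -0.52, 95% interval -0.90 to -0.15), *Tnfsf14* (-0.52, -0.96 to -0.08), *Tnfrsf1b* (0.30, 0.06 to 0.54) and *Tnfrsf21* (0.25, 0.05 to 0.44). For *Tnfsf9*, *Tnfsf14* and *Tnfrsf1b* the IL-4 and untreated samples did not overlap. The share of all genes with such an unadjusted p or without overlap was not counted, here and in the paragraphs that follow. These 4 members are therefore not read as changed by IL-4.

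Against IL-4 alone, 7 of the 10 members were called in the remainder and 7 in the difference, where 20.3% and 20.3% of all genes were called. *Tnf*, *Tnfsf13b*, *Tnfrsf1b*, *Tnfrsf9* and *Tnfrsf11a* were called in both, each in the direction seen against untreated cells. *Tnf* had a log2 fold change of -1.74 in the remainder and -1.46 in the difference (adjusted p = 1.7e-06 and 5.9e-06 from edgeR). *Tnfrsf1a* fell in the remainder (-0.42, adjusted p = 0.0035 from edgeR) and *Tnfsf14* rose in the difference, as given above. The calls with the highest adjusted p were *Tnfrsf9*, higher in the difference (adjusted p = 0.042 from edgeR), *Tnfrsf21*, lower in the remainder (-0.29, adjusted p = 0.036 from edgeR), and *Tnfsf12*, lower in the difference (-0.30, adjusted p = 0.034 from edgeR). With the mouse as a block in the paired fit, the *Tnfsf12* call was lost (adjusted p = 0.051), and without IL-4 mouse 1 the adjusted p was 0.14 for *Tnfsf12* and 0.15 for *Tnfrsf21*. Over the settings that leave out samples, the *Tnfsf12* call was lost in 7 (adjusted p = 0.065 to 0.24 from edgeR) and the *Tnfrsf21* call in 8 (0.065 to 0.18). Without mouse 3, 3 members were called in each of these 2 comparisons, where 1043 (remainder) and 1208 (difference) of 12233 genes were called. The *Tnfrsf1a* call in the remainder was then lost (adjusted p = 0.079 from edgeR), as were those of *Tnfrsf1b* (0.14 in the remainder, 0.22 in the difference) and *Tnfrsf11a* (0.26 and 0.14). In the difference, *Tnfrsf1b* also missed the threshold without mouse 2 (0.15), without IL-4 mouse 2 (0.075) or 3 (0.074) and without the difference of mouse 2 (0.070). *Tnfrsf11a*, whose remainder overlapped the IL-4 samples, missed it there without mouse 2 (0.054), without IL-4 mouse 2 (0.090) or 3 (0.11) and without the remainder of mouse 1 (0.10). The *Tnfrsf9* call in the difference was lost in DESeq2 (0.062) and in 6 settings that leave out samples (adjusted p = 0.054 to 0.13).

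Whether the IL-4 effect differs with Wnt3a was tested as an interaction under both assignments. With the remainder taken as Wnt3a+IL-4, 0 of the 10 members were called in edgeR and 0 in DESeq2, 1 member had an unadjusted p under 0.05, and 0.105% of all genes were called. With the difference taken as Wnt3a+IL-4, 2 members were called, and 7.33% of all genes. These were *Tnfsf9* (1.48 on the log2 scale, standard error 0.25, adjusted p = 0.0019 from edgeR) and *Tnfsf14* (1.18, standard error 0.28, adjusted p = 0.019 from edgeR). Both were lower with IL-4 than in untreated cells and higher in the difference than in the remainder in 3 of 3 mice. Both calls were lost without mouse 3 (adjusted p = 0.093 for *Tnfsf9* and 0.19 for *Tnfsf14*). The *Tnfsf14* call was also lost without mouse 1 (0.083), without mouse 2 (0.10) and without the difference of mouse 2 (0.050).

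**Figure D4:**
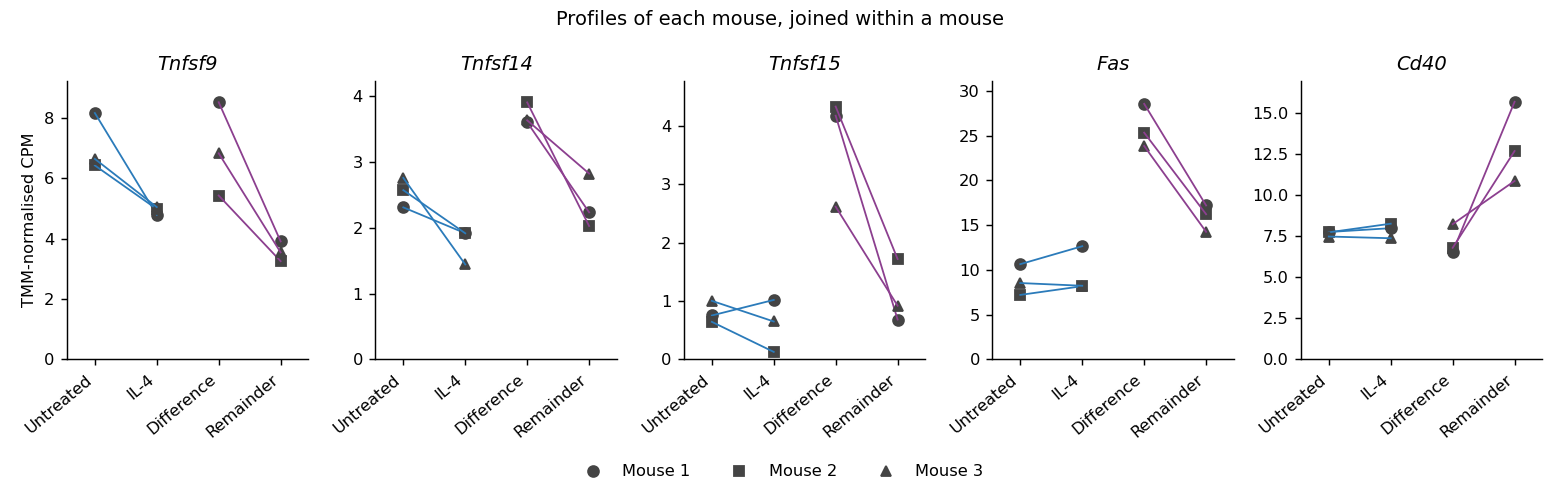
Level (y axis, TMM-normalised CPM from 0, a separate scale in each panel) of *Tnfsf9*, *Tnfsf14* and 3 other superfamily genes in the 4 profiles (x axis) of each mouse, with lines joining untreated to IL-4 and difference to remainder within a mouse. *Tnfsf9*, *Tnfsf14*, *Tnfsf15* and *Fas* go down from the difference to the remainder in all 3 mice, and *Cd40* goes up.

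The rest of the superfamily was listed in full. Of 18 ligands 11 passed the count filter, and of 28 receptors 19 did, the 10 members included. Among the 6 other ligands tested, 3 rose in the difference and 1 in the remainder, where 23.2% and 25.3% of all genes were called. *Tnfsf4* (OX40 ligand) was called in both. It had a log2 fold change of 1.76 in the difference (adjusted p = 0.0021 from edgeR) and 1.67 in the remainder (adjusted p = 0.0028). It was at 0.314 to 0.591 CPM in untreated cells, from 11, 8 and 5 counts, and had 6, 4 and 5 counts with IL-4. *Tnfsf4* thus passed the count filter through profiles with Wnt3a, and its calls are no support for a difference. *Tnfsf10* (TRAIL) rose in the difference by 1.09 (adjusted p = 0.012 from edgeR). *Tnfsf15* (TL1A) rose there by 2.21 (adjusted p = 0.0018 from edgeR), and it was lower in the remainder than in the difference (-1.74, adjusted p = 0.025). *Tnfsf8* (CD30 ligand) was called only against IL-4, higher in the difference (1.58, adjusted p = 0.012 from edgeR).

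Among the 14 other receptors tested, 5 rose and 1 fell in the difference, and 8 rose and 1 fell in the remainder. Over all genes 23.2% and 25.3% were called there. *Relt*, a receptor of lymphoid tissue with few known partners, went from 2.63, 2.70 and 1.94 CPM in untreated cells to 17.5, 16.1 and 14.1 CPM in the difference and 14.9, 9.09 and 10.1 CPM in the remainder. Its log2 fold change was 2.71 in the difference (adjusted p = 5.4e-07 from edgeR) and 2.22 in the remainder (adjusted p = 3.3e-06). *Fas*, the death receptor for Fas ligand, rose by 1.55 and 0.85 (adjusted p = 1.8e-05 and 0.0027 from edgeR), and was lower in the remainder than in the difference (-0.71, adjusted p = 0.027). *Cd40*, the costimulatory receptor of antigen-presenting cells, rose in the remainder alone, from 7.74, 7.72 and 7.46 CPM to 15.7, 12.7 and 10.8 CPM (0.77, adjusted p = 0.0013 from edgeR), and exceeded the difference (0.87, adjusted p = 0.0031). *Tnfrsf8* (CD30) rose in both profiles by 1.302 and 1.44, and *Tnfrsf14* (HVEM, the LIGHT receptor) by 0.74 and 0.45. *Tnfrsf12a* (Fn14, the TWEAK receptor) fell by 0.90 (difference) and by 0.53 (remainder). *Tnfrsf23* was called in both profiles, and *Tnfrsf22* and *Tnfrsf26* in the remainder. *Tnfrsf22* and *Tnfrsf23* share sequence (27.4% of the 50-base stretches of *Tnfrsf22* occur in other genes, most often *Tnfrsf23*), so their counts are uncertain. IL-4 called 0 of the 30 superfamily genes tested in edgeR and 0 in DESeq2, with 6 at an unadjusted p under 0.05.

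**Figure D5:**
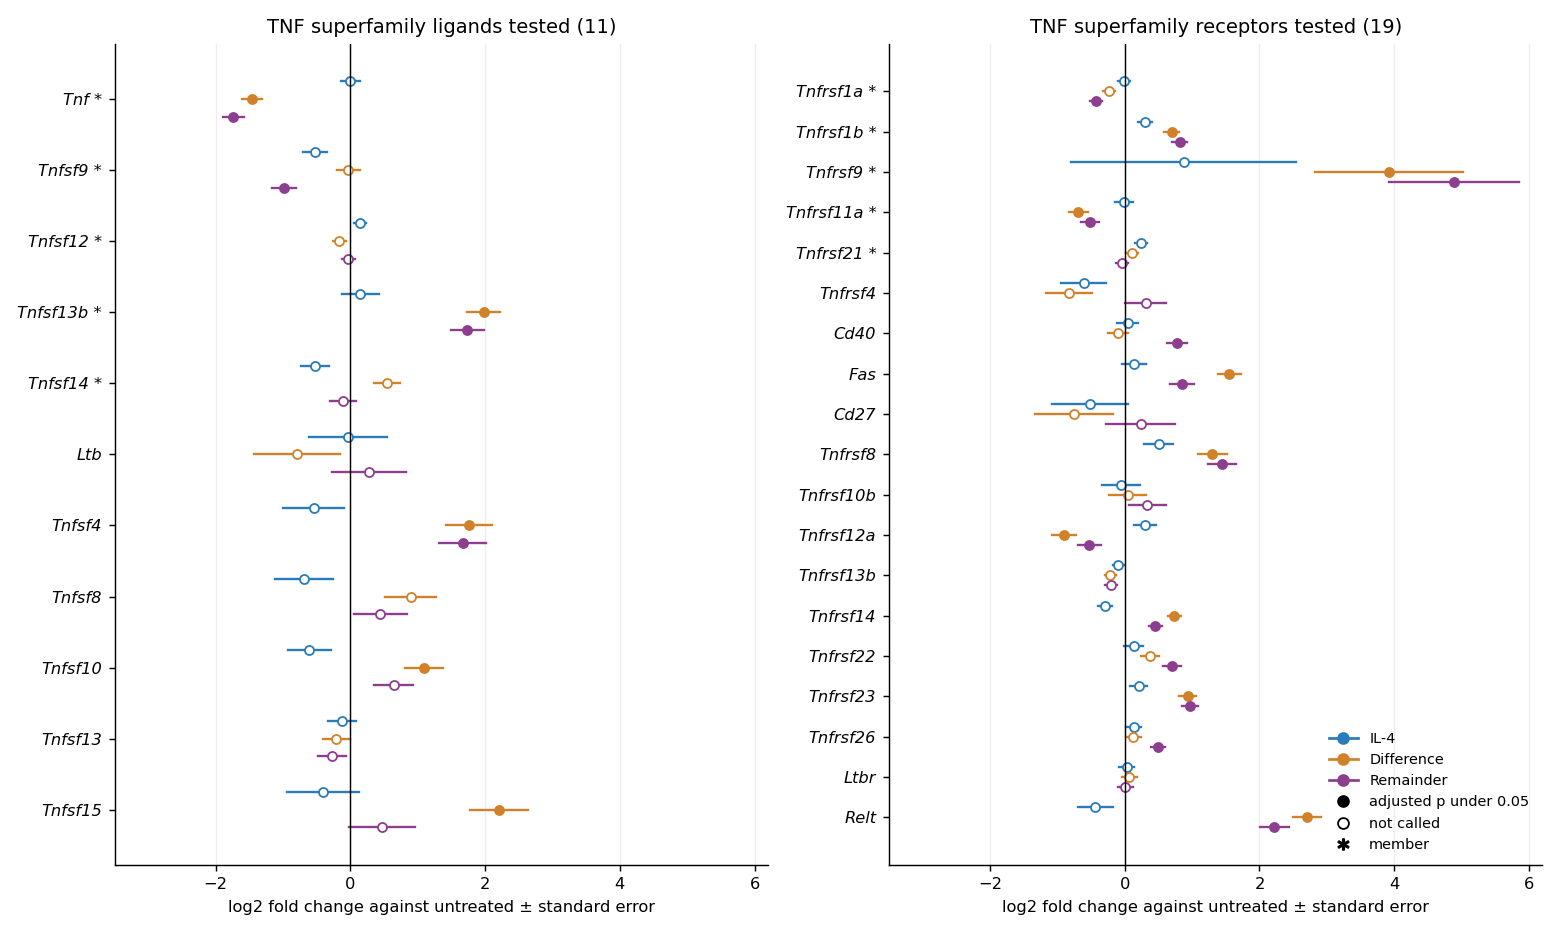
Log2 fold change against untreated cells (x axis, with its standard error) of the 11 ligands and 19 receptors tested (y axis, members starred), for IL-4, the difference and the remainder. Filled points passed the test. *Relt* lies at 2.71 and 2.22 in the difference and the remainder, *Tnf* at -1.46 and -1.74, and all IL-4 points are open.

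Ligand and receptor pairs were set side by side from these values. For TNF, the ligand fell and TNFR2 rose in the difference and the remainder, and TNFR1 fell in the remainder. For 4-1BB, the ligand fell in the remainder while the receptor had at most 1 count in any profile without Wnt3a and reached 1.43 CPM with it, and passed the count filter only through the latter. For TWEAK, the ligand was not called against untreated cells while its receptor *Tnfrsf12a* fell in both. For LIGHT, the ligand was not called against untreated cells, its receptor *Tnfrsf14* rose in both, and its other receptor *Ltbr* was not called in any comparison.

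Genes that carry the receptors' signals were counted from a list of 31 adaptors, kinases and regulators, all of them tested. Of these, 8 rose and 1 fell in the difference, and 7 rose and 2 fell in the remainder, that is 9 of 31 in each, where 23.2% and 25.3% of all genes were called. The list's share was thus near that of all genes, with a median log2 fold change of 0.08 and 0.03 against -0.01 and -0.02 over all genes tested. *Mlkl*, the executioner of necroptosis, rose by 1.62 and 1.68 (adjusted p = 5.8e-05 and 3.5e-05 from edgeR). *Traf1*, an adaptor that binds TNFR2, rose by 1.40 and 1.48 (adjusted p = 7e-08 and 2.9e-08 from edgeR), and *Ripk3*, the kinase upstream of *Mlkl*, by 0.71 and 1.01. *Birc3* (cIAP2), the ubiquitin ligase at TNF receptors, rose by 0.68 and 0.53. *Otulin*, which removes linear ubiquitin, fell in both, by 0.55 and 0.43.

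Of 10 genes that process TNF or act on its mRNA, 2 rose and 4 fell in the difference, and 1 rose and 3 fell in the remainder. Over all genes 23.2% and 25.3% were called there. *Rhbdf1* (iRhom1) fell by 1.59 and 2.05 (adjusted p = 0.00017 and 2.1e-05 from edgeR), and *Rhbdf2* (iRhom2), its relative in macrophages, rose by 0.45 and 0.73. Both are partners of the protease ADAM17, which frees TNF from the cell surface. *Adam17* itself rose in the difference (0.38, adjusted p = 0.028 from edgeR) and had 0.08 in the remainder. *Zfp36* (tristetraprolin), which promotes decay of *Tnf* mRNA, fell by 0.93 (difference) and by 0.28 (remainder), and its relative *Zfp36l2* fell by 0.36 and 0.60. The other gene that fell in the difference was *Zfp36l1* (-0.51, adjusted p = 0.027 from edgeR).

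Of 18 genes that TNF is known to induce, 8 rose and 1 fell in the difference. In the remainder 9 rose and 2 fell, while *Tnf* fell in both profiles. That is 9 and 11 of 18, where 23.2% and 25.3% of all genes were called. The median log2 fold change of the list was 0.50 and 0.48, against -0.01 and -0.02 over all genes tested. *Ccl5*, a chemokine, went from at most 13.2 CPM in untreated cells to at least 1602 CPM in every profile with Wnt3a (log2 fold change 7.52 in the difference and 7.38 in the remainder). *Ptgs2* (cyclooxygenase-2) rose by 2.85 and 3.26 and *Sod2* by 1.48 and 1.29. *Il1b* rose by 3.30 and 1.74 and was lower in the remainder than in the difference (-1.56, adjusted p = 0.0046 from edgeR). *Cxcl2* fell by 1.03 and 0.88. Of this list, 4 genes are also in another list.

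Of 12 osteoclast genes that RANK signaling is known to induce, 10 were tested. IL-4 raised 4 of them (*Dcstamp*, *Ocstamp*, *Atp6v0d2* and *Itgb3*), where 3.40% of all genes were called. *Ocstamp* was at 0.938 to 1.15 CPM with IL-4 and at most 0.450 CPM in every other profile. It passed the count filter through the IL-4 samples only, so its calls are no support for a difference. With IL-4, *Tnfrsf11a* had a log2 fold change of -0.01 (95% interval -0.30 to 0.27). In the difference 4 rose and 4 fell (*Itgb3*, *Atp6v0d2*, *Ocstamp* and *Fos*), and in the remainder 6 rose and 1 (*Fos*) fell. Over all genes 23.2% and 25.3% were called there, and *Tnfrsf11a* fell in both. *Src*, a kinase needed by osteoclasts, rose by 2.53 and 2.69, *Acp5* (the phosphatase TRAP) by 2.09 in both, and *Dcstamp*, needed for cell fusion, by 2.10 and 3.67. *Itgb3*, the β3 integrin, fell by 1.77 (difference) and rose by 0.89 (remainder). *Atp6v0d2*, a subunit of the proton pump, likewise fell in the difference (-0.97, adjusted p = 0.0011 from edgeR) and rose in the remainder (1.03, adjusted p = 0.00037). Between the remainder and the difference, *Itgb3* (2.67), *Atp6v0d2* (2.01) and *Dcstamp* (1.56) were higher in the remainder, with adjusted p-values of at most 0.0017 from edgeR.

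Other cell types were checked with marker lists. The 8 neutrophil markers summed to 39.5 to 49.5 CPM in untreated cells, 51.5 to 61.7 with IL-4, 29.2 to 46.2 in the difference and 26.4 to 30.7 in the remainder. Of the 5 tested, 3 were lower than in untreated cells in the remainder and 1 in the difference, where 25.3% and 23.2% of all genes were called. The 5 B cell markers summed to 2.597 to 3.87 CPM and the 7 stromal markers to 18.0 to 42.3 CPM over all profiles. Neutrophil markers thus went down with *Tnf*, *Tnfrsf1a* and *Tnfrsf11a* in the remainder, while *Tnf* and *Tnfrsf11a* fell in the difference as well. The part of neutrophils in those results was not tested.

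Among 8414 genes outside the superfamily with at least 10 CPM in their highest group, the profile of each member over the 12 profiles was matched by Pearson's correlation of log2 CPM. The points share libraries, mice and treatments, so the values describe likeness in these profiles only. *Tnf* was most like *Atp2b4* (r = 0.993) and *Hmga2* (r = 0.987). *Tnfsf13b* was most like *Spint1* (r = 0.980) and *Sod2* (r = 0.977). *Tnfrsf1b* was most like *Dnajb11* (r = 0.978) and *B4galnt1* (r = 0.976), *Tnfrsf11a* like *Cdan1* (r = 0.974), *Tnfrsf1a* like *Adipor1* (r = 0.981) and *Tnfrsf9* like *Ccr7* (r = 0.972). *Tnfrsf21*, which changed little, had no match above r = 0.884.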

How the data were processed

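RNA from BMDMs of 3 mice in 4 groups was sequenced as single reads. Trimming by the authors used Trimmomatic 0.36, alignment to mm10 used STAR 2.6.0, and counting per gene used HTSeq 0.11.1 (FastQC 0.11.7, SAMtools 1.9 and DESeq2 1.24.0 are also named in the submitters' processing notes). Strand handling is not given in the sources used here. The deposited values are raw counts, whole reads per gene, for 48526 Ensembl identifiers, of which 48058 (99.0%) matched a symbol. The deposited Wnt3a and Wnt3a+IL4 columns held 29879207 to 51905621 counts, and were split into difference and remainder profiles of 14171994 to 17453377 counts. The split is arithmetic on the deposited counts, and nothing in the labels describes it. Untreated and IL-4 samples held 13342492 to 17113982.

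Genes that reached 10 counts in 3 or more of the 12 profiles were tested (12421 genes) in 1 fit of edgeR 4.0.16 (R 4.3.3, limma 3.58.1), by the quasi-likelihood test with TMM scaling, a prior count of 2 for log2 CPM and Benjamini-Hochberg adjustment at 0.05. DESeq2 1.42.0, other scalings and filters, the mouse as a block and leaving out each replicate were alternatives. Intervals are 95%. Counting intervals cover counting error only. Exons and positions are from GENCODE vM21 (mm10), and promoters from RefSeq (GRCm38.p6).

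Same-numbered samples come from the same mouse, by the labels. Over 18 same-mouse pairs, the correlation of deviations from the group means ran from -0.417 to 0.454, and 6 pairs were over 0.1. The members and gene lists were chosen with earlier results of these data known. In the other lists, genes called in both the difference and the remainder against untreated cells were named, up to the 4 largest changes in each. Genes behind a count of 5 or fewer and *Adam17*, *Atp6v0d2* and *Otulin* were named after their values were seen. Other superfamily genes were named where called in any comparison, or as the partner of a member.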

Additional observations from a re-analysis of the deposited data

Results flagged for a closer look

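With the difference taken as Wnt3a+IL-4, the effect of IL-4 differed between cells with and without Wnt3a for 2 members, by the interaction term of edgeR's quasi-likelihood test. The difference of the 2 effects was 1.48 on the log2 scale for *Tnfsf9* (95% interval 0.94 to 2.02, adjusted p = 0.0019), in the same direction in 3 of 3 mice. It was 1.18 for *Tnfsf14* (95% interval 0.57 to 1.78, adjusted p = 0.019), again in 3 of 3 mice. With the remainder taken as Wnt3a+IL-4 the same terms were -0.44 for *Tnfsf9* (95% interval -0.98 to 0.11, adjusted p = 0.51) and -0.13 for *Tnfsf14* (95% interval -0.74 to 0.48, adjusted p = 0.91). Over all 12421 genes tested, 910 (7.33%) were called with the difference as Wnt3a+IL-4, and 13 (0.105%) with the remainder. The labels do not say which assignment holds, and it was not tested, so the interaction of these 2 ligands rests on it. Without mouse 3 both calls were lost, at an adjusted p of 0.093 for *Tnfsf9* and 0.19 for *Tnfsf14*.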

How the results depend on the processing

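Over 25 alternatives, 1397 of 1521 values kept their direction and call, 77 lost the call, 14 gained one and 33 changed sign, 0 of the latter called in either. The number of members called without 1 replicate ranged from 3 to 6 in the difference, from 3 to 8 in the difference against IL-4, from 3 to 7 in the remainder against IL-4, from 0 to 1 in the remainder against the difference and from 0 to 3 in the interaction with the difference as Wnt3a+IL-4. A minimum log2 change of 1 in either direction left 3 members in the difference, 3 in the remainder, 3 in the remainder against IL-4, 4 in the difference against IL-4 and 0 in the remainder against the difference. Asking for an adjusted p under 0.01 left 4 in the difference against IL-4 and 1 in the interaction. The remainder against the difference called 2 members under total count scaling, where 604 of all genes were called, and 0 with the deposited columns. Those columns are among the 25 alternatives, but they share reads, so their values do not test the separate profiles. The mouse as a replicate block moved the difference against IL-4 from 7 to 6 members (*Tnfsf12*, log2 fold change -0.30, adjusted p = 0.051) and changed no other call.

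Uncalled values that changed sign were *Tnf* with IL-4 (-0.0025 with DESeq2 and with its size factors, -0.057 with total count scaling, -0.0093 with all genes, -0.0046 with at least 1 CPM), and with the deposited columns *Tnfsf14* (0.24) and *Tnfrsf21* (0.022) in the remainder. Without 1 replicate, *Tnf* (-0.12 to 0.11), *Tnfrsf11a* (-0.14 to 0.16) and *Tnfrsf1a* (-0.12 to 0.056) with IL-4, *Tnfrsf21* (-0.086 to 0.053), *Tnfsf12* (-0.13 to 0.14) and *Tnfsf14* (-0.25 to 0.011) in the remainder, *Tnfsf9* in the difference (-0.22 to 0.12) and the *Tnfsf14* interaction with the remainder as Wnt3a+IL-4 (-0.45 to 0.084) spanned 0. The cause was not tested. Total count scaling moved the median of all genes by -0.09 (difference) and -0.11 (remainder). *Tnf* and *Tnfsf13b* kept their calls under every alternative run. *Tnfrsf9* could not be fitted where too few profiles reached the count filter.

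Over all genes, 422 (IL-4), 2884 (difference), 3137 (remainder) and 652 (remainder against difference) were called, and without mouse 3 77, 1220, 1375 and 97. Over all settings that leave out samples the ranges were 77 to 532, 1220 to 3188, 1375 to 3807 and 97 to 1188. The last rose without mouse 2 to 1188 (369 higher and 819 lower, against 356 and 296) and without the remainder of mouse 2 to 1159. They were 227, 1687, 1960 and 279 at an adjusted p under 0.01, and 133, 842, 917 and 184 with a minimum log2 change of 1. Without a count filter, IL-4 called 812 and the remainder against the difference 1454. The latter called 422 with its own groups alone. It called 0 with the deposited columns, which share reads and do not test it. The interaction with the remainder as Wnt3a+IL-4 called 13, but 165 in DESeq2, 575 without a filter and 0 at an adjusted p under 0.01. The other interaction called 910 (265 to 1459 without samples), and 1505, 472 and 423 without a filter, at 0.01 and with the minimum change. Against IL-4, the remainder called 2521 and the difference 2519, then 1575 and 1659 at 0.01, and 733 and 835 with the minimum change. Over the settings that leave out samples these 2 ranged from 1043 to 3052 and from 1208 to 2805. At 21 to 34 counts for *Tnfsf13b* and 0 to 1 for *Tnfrsf9* in untreated samples, counting error limits the fold change.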
